A study of Mus musculus with 20 samples.

Results

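Red cells carry large amounts of iron and oxygen and therefore rely on enzymes that remove reactive oxygen species. Superoxide dismutase turns superoxide into hydrogen peroxide, which catalase, the glutathione peroxidases and the peroxiredoxins then break down. Thioredoxin returns oxidised peroxiredoxins to their working form, and biliverdin reductase B reduces flavins and products of heme breakdown. Peroxiredoxin 2 is among the most abundant proteins of mature red cells.

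The introns of 10 genes for such enzymes were examined: Prdx1, Prdx2, Prdx5, Prdx6, Gpx1, Gpx4, Cat, Sod1, Txn1 and Blvrb. They were taken by gene name, through the GENCODE mouse annotation, from a table of spliced and unspliced reads and from a table of splicing intermediates. The 10 genes had 47 introns among 68794 introns of 8397 genes in the first table, and 21 among 6537 introns in the second. The cells were murine erythroleukemia (MEL) cells, a leukemic mouse line arrested as red cell precursors, of wild type genotype. The uninduced group had no treatment, and the induced group was kept in 2% dimethyl sulfoxide (DMSO) for 5 days, which starts maturation towards red cells. Each group had 4 long-read samples of chromatin-bound RNA freed of polyadenylated and ribosomal RNA, from 2 biological replicates on 2 PacBio instruments. The tables name only the condition, uninduced or induced, which was matched to these groups. Which samples were added together is not stated, and the series has 6 further induced long-read samples, of lines with an integrated gene. Both tables give 1 pooled value per intron and condition, so the spread between replicates is unknown. Each test below therefore compares 2 pools of libraries, not 2 conditions, and covers counting error only.

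Over all genes, the uninduced pool held 358493 spliced and 57886 unspliced observations (a read counts once at each intron it covers), and the induced pool 240664 and 38707. As a check of the labels, 17 of 18 listed erythroid marker genes were in the table, and all of them except Tal1 took a larger share of reads in the induced pool. Tal1 had 0 uninduced reads and 1 induced read, too few for a direction. A gene's share is given as RPM, the reads at its deepest intron per 1000000 of such reads summed over all genes. The erythroid markers summed to 6115 RPM in the uninduced and 76912 RPM in the induced pool. Of 5 markers of early, dividing precursors 3 were in the table, Myb with 23 uninduced reads and 1 induced read, and Myc and Spi1 with 4 and 5 uninduced reads and no induced one. No lymphoid (of 5) or fibroblast (of 3) marker was in the table, and of 8 granulocyte and monocyte markers only Prtn3 was, with 1 uninduced and 0 induced reads. The 3 megakaryocyte markers summed to 691 and 2896 RPM, with Pf4 lower (40 and 5 reads) and Itga2b higher (17 and 156 reads) in the induced pool. What part these shifts have in the values of the enzyme genes was not tested.

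The splicing values turned on 8 introns of Prdx2, Gpx1 and Gpx4. Splice sites of these introns are shown as deposited, because they bound the sequence whose removal tells spliced from unspliced reads. Each 5′ site has 3 exon bases followed by 6 intron bases, with the first pair of intron bases in capitals. Each 3′ site has 20 intron bases followed by 3 exon bases, with the last pair of intron bases in capitals.
Prdx2 intron 1 (GRCm38 chr8:84969763-84970151, plus strand), 5′ site: cagGTatga
Prdx2 intron 1, 3′ site: ctctcggttttactatctAGact
Prdx2 intron 2 (chr8:84970345-84970435), 5′ site: gagGTgagg
Prdx2 intron 3 (chr8:84970590-84971286), 5′ site: gtgGTaagg
Prdx2 intron 3, 3′ site: catgtctctctcaccttcAGgat
Prdx2 intron 4 (chr8:84971410-84971561), 5′ site: cagGTacag
Prdx2 intron 4, 3′ site: gtgggccctcatgtcttcAGggg
Prdx2 intron 5 (chr8:84971693-84973999), 5′ site: aagGTgagt
Prdx2 intron 5, 3′ site: catccttgtgtgttttctAGtct
Gpx1 intron 1 (chr9:108339559-108339776, plus strand), 5′ site: cagGTatat
Gpx1 intron 1, 3′ site: aatgcctttgtcttccctAGgag
Gpx4 intron 2 (chr10:80054609-80054699, plus strand), 5′ site: cagGTgggt
Gpx4 intron 2, 3′ site: ccactctttctctctcccAGggg
Gpx4 intron 3 (chr10:80054845-80054967, plus strand), 5′ site: cagGTgtgt
Gpx4 intron 3, 3′ site: gtaaatgttgcttcctgcAGgag

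All 21 enzyme introns of the second table began with GT and ended with AG, and the last exon base before the intron was G in 19 of them, against 80.7% of all introns of that table. The deposited score of the 5′ site had a median of 8.7 over the 21 introns and 8.78 over all introns. For the 3′ site these medians were 10.96 and 8.7. Within Prdx2, intron 5 had the highest 5′ score, 10.47, and intron 3 the highest 3′ score, 12.81. The lowest 3′ scores of the gene were those of intron 1, 6.4, and intron 4, 7.38. From intron 1 to intron 5, the Prdx2 introns had 389, 91, 697, 152 and 2307 nt and a GC content of 55.0%, 56.0%, 51.6%, 61.2% and 44.3%. The single Gpx1 intron had 218 nt and the Gpx4 introns 2 and 3 had 91 and 123 nt. The median was 953 nt over the 21 enzyme introns and 951 nt over all introns of that table.

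The first comparison asked which of these genes took more or fewer of the nascent reads after induction. Prdx2 and Gpx1 took a larger share in the induced pool, by 4.80-fold and 2.78-fold, and Prdx6, Txn1, Prdx1 and Gpx4 a smaller one, at 0.302, 0.364, 0.391 and 0.464 of the uninduced share. A share was called past 2-fold only where a pool had at least 10 reads at the gene's deepest intron. This is a rule of size, not a test. Of the 10 genes, 8 had that depth, with 2 past 2-fold higher, 4 past 2-fold lower and 2 between. Prdx2, Gpx1 and Gpx4 had it in both pools, while Prdx1, Prdx6, Txn1, Sod1 and Cat had it only in the uninduced pool, where they were higher, so these counts partly follow from the minimum and are a description. Over all 2409 genes of that depth, 17.2% were past 2-fold higher and 26.4% past 2-fold lower. These were 414 and 637 genes, and with the median gene as scale 531 and 521. The median over all genes was 0.862, a shift of -0.21 on the log2 scale, and folds are therefore also given relative to it. The share mixes fewer cells of a kind with less RNA per cell, which cannot be told apart in bulk samples.

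Prdx2, the peroxiredoxin of red cells, had 61 uninduced and 194 induced reads at its deepest intron, or 727 and 3489 RPM (fold 4.80, exact 95% interval 3.58 to 6.51). It ranked 121 of 2409 genes by fold. Gpx1, the cytosolic glutathione peroxidase, a selenoprotein, had 58 and 107 reads, or 691 and 1925 RPM (fold 2.78, interval 2.00 to 3.90), and 89.7% of genes had the same or a lower fold. Relative to the median gene the folds were 5.57 and 3.23. For both, the exact interval, which covers counting error alone, lay above that median. Counting spliced reads only, an alternative chosen after seeing the data, gave 3.32 for Prdx2 and 4.94 for Gpx1, so both stayed past 2-fold and their order changed.

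Gpx4, a selenoprotein that reduces lipid peroxides in membranes, had 52 uninduced and 16 induced reads (fold 0.464, interval 0.247 to 0.826). Txn1, the cytosolic thioredoxin, had 29 and 7 reads (fold 0.364, interval 0.135 to 0.850). Both intervals lay below the median of all genes. Gpx4 had the read minimum in both pools. Txn1 had it only in the uninduced pool, where it was higher. The interval of Txn1 does not allow for that selection, so no loss relative to the median was read from it. Prdx1, the close relative of Prdx2 found in most cells, had 27 and 7 reads (fold 0.391, interval 0.144 to 0.921). Prdx6, a peroxiredoxin that also reduces phospholipid peroxides, had 20 and 4 reads (fold 0.302, interval 0.0750 to 0.901). The intervals of Prdx1 and Prdx6 included the median of all genes. Relative to that median Gpx4 stood at 0.538, and by the mean over introns at 0.525, in both cases no longer past 2-fold, while Prdx6, Txn1 and Prdx1 stayed past it at 0.350, 0.422 and 0.454.

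Sod1, the cytosolic copper and zinc superoxide dismutase, had 15 and 5 reads (fold 0.503, interval 0.143 to 1.46). Cat, the catalase of peroxisomes and red cells, had 15 and 6 reads (fold 0.604, interval 0.192 to 1.65). Neither was past 2-fold, and both intervals reach from a several-fold loss to a gain. Both calls turned with the way reads were counted. By the mean over introns Sod1 stood at 0.329, past 2-fold lower, and Cat at 0.903. With spliced reads only Cat stood at 0.441, past 2-fold lower. Prdx5, a peroxiredoxin of mitochondria and peroxisomes, had 6 and 1 reads and Blvrb had 7 in each pool. Both were under the minimum, and their intervals (0.00547 to 2.07 and 0.452 to 5.04) leave either direction possible.

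**Figure D1:**
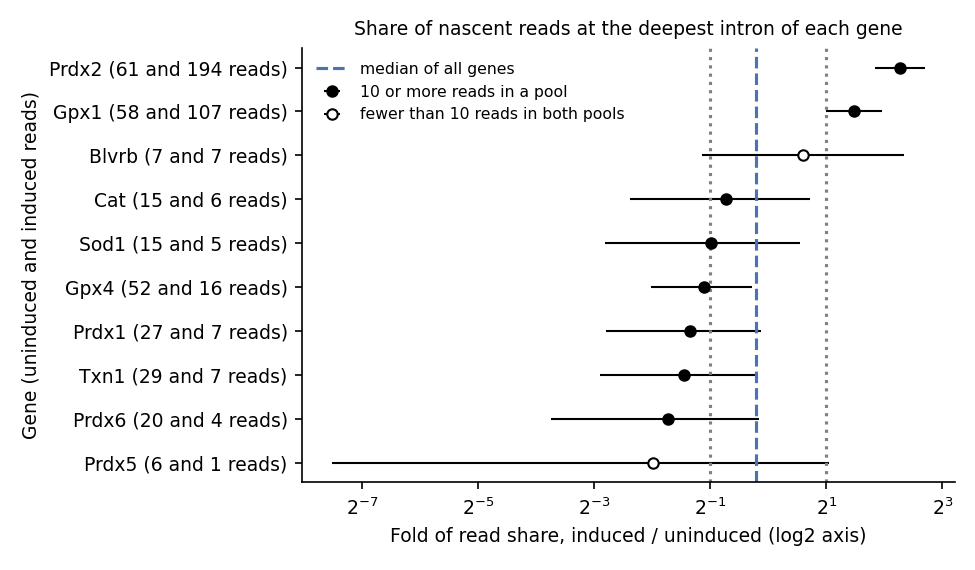
Fold of the read share, induced over uninduced (log2 axis), for each of the 10 genes, with exact 95% intervals for counting error; grey dotted lines mark 2-fold and the blue dashed line the median of all genes. Prdx2 and Gpx1 lie to the right of the upper 2-fold line, and Prdx6, Txn1, Prdx1 and Gpx4 to the left of the lower line; open points mark the 2 genes under 10 reads in both pools.

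The second comparison asked whether the introns were spliced to a different degree after induction. Co-transcriptional splicing efficiency (coSE) is the number of spliced reads over spliced plus unspliced reads at an intron. Introns 2, 3 and 4 of Prdx2 fell from a coSE of about 0.9 to between 0.537 and 0.598, intron 5 of the same gene did not pass the test, and the single intron of Gpx1 rose from 0.431 to 0.748. With at least 10 reads in both pools, 8 of the 47 introns could be tested, in Prdx2, Gpx1 and Gpx4, and 4 passed: 3 falls and 1 rise. Over all 4403 introns tested, 1.61% passed, 1.25% as falls and 0.363% as rises (two-sided Fisher's exact test, Benjamini-Hochberg adjusted over all introns, threshold 0.05). With at least 20 reads in both pools, 68 of 1330 introns passed, 55 as falls and 13 as rises, and 4 of 5 enzyme introns.

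Prdx2 lies on chromosome 8 (84969587 to 84974834), and its tabulated transcript has 5 introns. At intron 2, between coding exons and part of 7 of the 7 annotated transcripts that span it, 54 of 61 uninduced and 116 of 194 induced reads were spliced. The coSE fell from 0.885 (Wilson 95% interval 0.782 to 0.943) to 0.598 (0.528 to 0.664), with an adjusted p of 0.00323 by Fisher's exact test. At intron 3, in 6 of 6 spanning transcripts, 46 of 51 and 101 of 186 reads were spliced. The coSE there fell from 0.902 (0.790 to 0.957) to 0.543 (0.471 to 0.613), with an adjusted p of 0.000468. The 3 intervals of the induced pool at introns 2, 3 and 4 overlap each other and none reaches its uninduced interval.

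The deepest fall was at intron 4, also in 6 of 6 spanning transcripts, where 44 of 46 uninduced and 80 of 149 induced reads were spliced. Its coSE fell from 0.957 (0.855 to 0.988) to 0.537 (0.457 to 0.615), a difference of -0.42 (interval -0.506 to -0.291, adjusted p 1.24e-05 by Fisher's exact test). Only 0.613% of all tested introns had a difference as low or lower. For introns 2 and 3 these shares were 2.52% and 1.39%. Intron 4 ranked the 7th of 4403 introns by its unadjusted p.

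Intron 5, the last and longest of Prdx2, stood apart from the 3 before it. Spliced reads made up 37 of 44 in the uninduced and 60 of 70 in the induced pool, giving 0.841 (0.706 to 0.921) and 0.857 (0.757 to 0.921). The difference was 0.0162 with an interval from -0.112 to 0.165, so a fall of the size seen at introns 2 to 4 lies outside it. Unspliced induced reads numbered 78, 85 and 69 at introns 2, 3 and 4 and 10 at intron 5, while spliced ones declined more evenly, from 116 to 101, 80 and 60. Of the 8 annotated Prdx2 transcripts 1 ends inside intron 3, 1 starts inside intron 4 and 1 ends inside intron 5. The tables do not say which reads covered several introns, so the falls at introns 2 to 4 may rest on the same molecules and are not independent of each other.

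Intron 1 of Prdx2 lies in the 5′ UTR and has the lowest induced coSE among enzyme introns with at least 10 reads. Spliced reads numbered 5 of 13 in the uninduced pool (coSE 0.385, interval 0.177 to 0.645) and 5 of 92 in the induced pool (0.0543, 0.0234 to 0.121). The difference did not pass the threshold (adjusted p 0.112 by Fisher's exact test). Only 1 of the 4 annotated transcripts that span it has this exact intron, and the other 3 have an intron with another boundary there. A further 2 transcripts start inside it. How reads spliced at other boundaries were counted is not given in the sources used here, so this coSE is not comparable with those of introns 2 to 5. A processed pseudogene copy of Prdx2 (Prdx2-rs3) is annotated elsewhere, as are copies of Prdx6 and Gpx4, and how reads that match several places were placed is not stated.

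**Figure D2:**
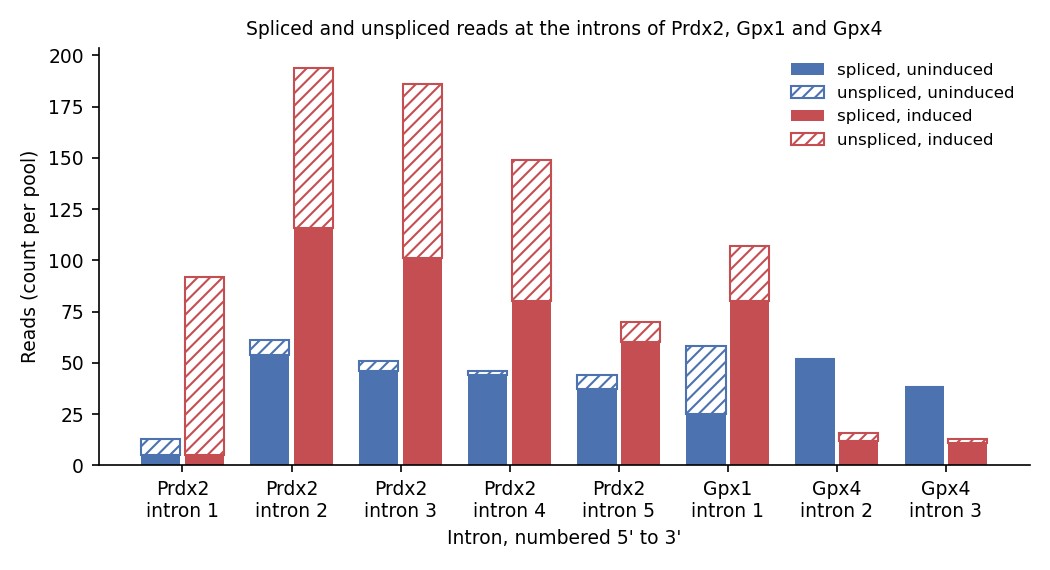
Spliced (filled) and unspliced (hatched) reads at each intron of Prdx2, Gpx1 and Gpx4 with at least 10 reads, uninduced pool in blue and induced pool in red; bar heights are read counts per pool. The hatched part of the induced bars is large at Prdx2 introns 1 to 4, with 87, 78, 85 and 69 reads, and small at intron 5, with 10.

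Gpx1 (chromosome 9, 108338903 to 108340343) changed in the other direction. Its only tabulated intron separates coding exons, and 25 of 58 uninduced and 80 of 107 induced reads there were spliced. The coSE rose from 0.431 (interval 0.312 to 0.559) to 0.748 (0.658 to 0.820), a difference of 0.317 (interval 0.160 to 0.456, adjusted p 0.00971 by Fisher's exact test). Unspliced reads numbered 33 and 27, while spliced reads went from 25 to 80. In the uninduced pool only 6.06% of all introns with at least 10 reads had a coSE as low or lower, and in the induced pool 18.5%. Of the 4 annotated transcripts that span the intron, 2 have it, 1 has an intron with another boundary and 1 has none. The rise did not pass the threshold without a read minimum (difference 0.317, adjusted p 0.0882) or with the uninduced pool thinned to the induced total (difference 0.260, adjusted p 0.136).

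Gpx4 (chromosome 10, 80047166 to 80056439) was tabulated through a noncoding transcript of 3 introns. Intron 2 was spliced in 52 of 52 uninduced reads (coSE 1, interval 0.931 to 1) and in 12 of 16 induced reads (0.750, interval 0.505 to 0.898). The adjusted p was 0.108 by Fisher's exact test, and the interval of the difference ran from -0.495 to -0.0866. Intron 3 was spliced in 38 of 38 and 11 of 13 reads, a coSE of 1 (0.908 to 1) and 0.846 (0.578 to 0.957), with an adjusted p of 0.694. Both introns are in 4 of 5 annotated transcripts that span them, and the transcript's intron 1 had 1 read in all.

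The other 7 genes were read in the uninduced pool, since none of their 38 introns had more than 7 induced reads. Txn1, with 23 to 29 uninduced reads at each of its 4 introns, was spliced in 104 of 105 observations, and all 20 induced observations were spliced. Prdx1 was spliced in 91 of 96 uninduced and 27 of 27 induced observations over 5 introns. Its lowest uninduced value was 0.857 (0.654 to 0.95) on 21 reads at intron 3. Prdx6 was spliced in 65 of 70 uninduced and 16 of 16 induced observations over 4 introns. Prdx5 had no unspliced observation among 20 uninduced and 4 induced, and Blvrb had 1 in each pool, among 22 and 17. At these depths a coSE of 1 at a single induced intron means only that no unspliced read was found among at most 7.

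Depth fell along the gene in Prdx1, with 27, 24, 21, 13 and 11 uninduced reads from intron 1 to intron 5, and in Cat, with 15 reads at intron 1 and 1 at intron 12. Cat was spliced in 55 of 62 uninduced and 28 of 34 induced observations over its 12 introns. Of its 7 uninduced unspliced observations 4 lay at intron 7, which was spliced in the other 4 of its 8 reads. Only intron 1 of Cat, of 8052 nt, reached 10 reads, with 14 of 15 spliced.

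Sod1 differed from these genes in the uninduced pool. It was spliced in 15 of 40 observations, a coSE of 0.375, where the other 6 of the 7 genes had between 0.887 and 1. From intron 1 to intron 4, 0 of 3, 2 of 10, 5 of 15 and 8 of 12 reads were spliced. Intron 3 thus had a coSE of 0.333 (0.152 to 0.583), and 4.35% of all introns with at least 10 reads had a value as low or lower. The coSE of intron 2 was 0.200 (0.0567 to 0.510) and that of intron 4 was 0.667 (0.391 to 0.862), and the 3 intervals overlap. Of the 2 annotated transcripts, 1 lacks introns 1 and 2, and 470 nt of intron 4 lie under Scaf4 on the opposite strand. Whether counting used the strand is not stated. In the induced pool Sod1 had 8 observations, 4 of them spliced, which is too few to compare.

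**Figure D3:**
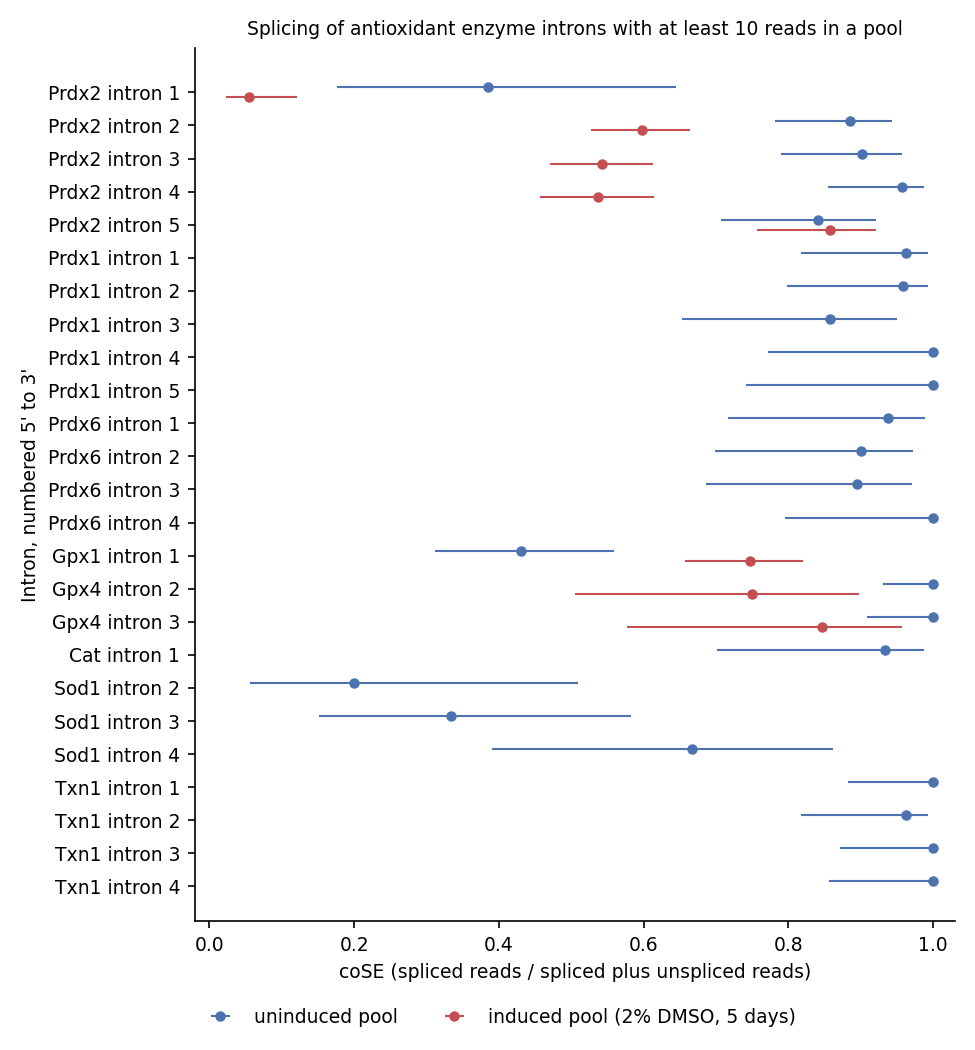
coSE of each of the 25 introns with at least 10 reads in a pool, as points with Wilson 95% intervals, uninduced in blue and induced in red; a pool under 10 reads is not drawn. The red points of Prdx2 introns 2 to 4 lie left of the blue ones with no overlap of the intervals, that of Gpx1 lies right of the blue one, and the Sod1 introns have the lowest blue points beside Prdx2 intron 1 and Gpx1.

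Averaged over introns with at least 10 reads, uninduced coSE was 0.840 ± 0.238 (SD, 25 introns of 8 genes), against a mean of 0.855 over all 9982 introns. The induced value was 0.617 ± 0.260 (SD, 8 introns of 3 genes), against 0.865 over 6333 introns. The medians were 0.938 and 0.673 for the enzyme introns and 0.933 and 0.947 for all introns. The induced average holds only Prdx2, Gpx1 and Gpx4, with 5 of 8 introns from Prdx2, so these averages describe different genes in the 2 pools and do not measure a change.

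The change of read share and that of coSE were set side by side over all tested introns. In genes past 2-fold higher, 8 of 720 introns fell (1.11%) and 3 rose (0.417%), so Prdx2 supplied 3 of these falls and Gpx1 1 of the rises. In genes past 2-fold lower, 36 of 390 introns fell (9.23%) and 0 rose. In genes within 2-fold, 11 of 3293 fell (0.334%) and 13 rose (0.395%). Prdx2 was 1 of 4 genes with a larger read share and a fall, against 20 genes with a smaller share and a fall. These are counts from 1 pair of pools, and introns of a gene share reads. Read share and coSE are both computed from the same spliced and unspliced reads. The grouping by read share is therefore not independent of the change in coSE, and no relation between them was tested.

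**Figure D4:**
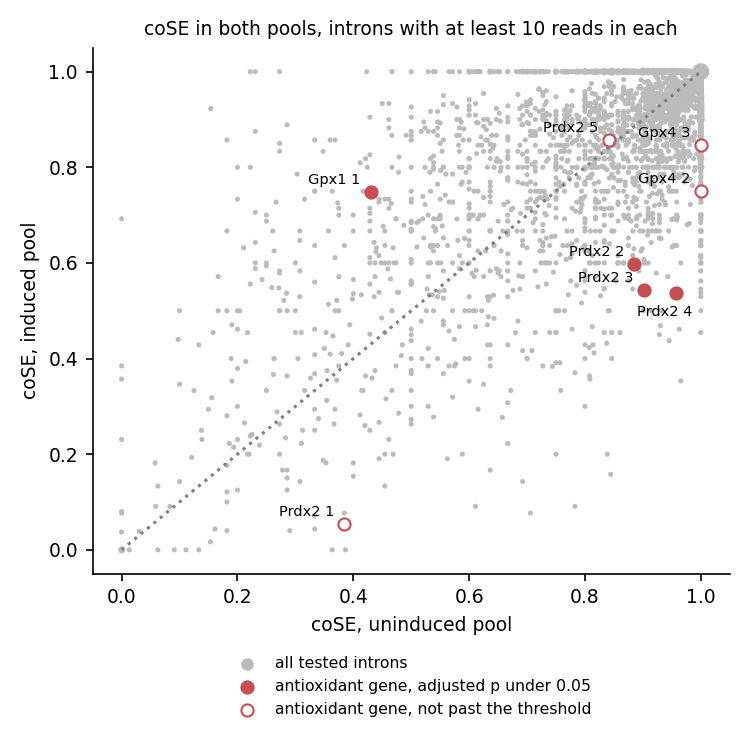
coSE in the uninduced pool (horizontal) against the induced pool (vertical) for all 4403 introns with at least 10 reads in each, in grey with larger dots for more introns, and the 8 tested enzyme introns in red, labelled by gene and intron number; filled points passed the threshold. Prdx2 introns 2 to 4 lie well below the diagonal, Gpx1 intron 1 lies above it, and Prdx2 intron 5 lies on it.

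Splicing intermediates were compared next. Such an RNA has been cleaved at its 5′ splice site while the exons still await joining, and the deposited fraction NIC is their share of intermediates plus spliced reads. At intron 5 of Prdx2, 1 of 32 uninduced and 9 of 65 induced reads were intermediates, a NIC of 0.0313 (0.00554 to 0.157) and 0.138 (0.0746 to 0.243). At intron 2 it was 1 of 45 and 7 of 113, at intron 3 0 of 39 and 4 of 95, and at intron 4 1 of 39 and 5 of 79. None of these 4 introns passed the test (adjusted p 1 by Fisher's exact test at each). The uninduced values rest on at most 1 intermediate. A level of 3 counts, 0.0667 at intron 2 and 0.0769 at introns 3 and 4 in the uninduced pool, lies above the induced NIC there (0.0619, 0.0421 and 0.0633), so no direction was read at these introns. Added over introns 2 to 5, intermediates numbered 3 of 155 uninduced reads (1.94%) and 25 of 352 induced reads (7.10%). Over all 2039 introns with a value in both pools the shares were 2.22% and 3.83%. With 3 uninduced intermediates in all, no direction was read from these sums. A sum over introns can count a molecule more than once, and it was not tested.

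Gpx1 had 1 of 24 and 4 of 82 intermediates, a NIC of 0.0417 and 0.0488. Of the 6 enzyme introns with a value in both pools 0 passed, and none had an unadjusted p under 0.05. Over all introns 2 passed (0.0981%) and 34 had an unadjusted p under 0.05. Gpx4 intron 2 had no intermediate among 46 uninduced and 8 induced reads, and intron 3 had 3 intermediates among 35 uninduced reads (0.0857, 0.0296 to 0.224). No intermediate was found at the 4 introns of Txn1, the 4 of Prdx6, the 3 of Prdx1 and the 1 of Cat and Sod1 in the second table, all uninduced, on 2 to 27 reads each.

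A list of 63 other genes of peroxide, thioredoxin, glutathione and heme breakdown metabolism was read in the same way. Of these 49 were in the table and 17 had at least 10 reads at the deepest intron in a pool. Of the 17, 2 were past 2-fold higher, 6 past 2-fold lower and 9 between, against 17.2% higher and 26.4% lower over all genes. The 6 lower genes had the minimum only in the uninduced pool and the 2 higher ones only in the induced pool, so these counts too are a description. The largest losses were those of Glrx, a glutaredoxin (15 and 2 reads, fold 0.201), Selenok, an endoplasmic reticulum selenoprotein (25 and 4 reads, fold 0.241), and Park7, a redox-sensing protein (42 and 7 reads, fold 0.252). Selenot and Selenos, selenoproteins of the endoplasmic reticulum, had 3 uninduced and 10 induced reads each (fold 5.03, interval 1.30 to 28.4), the latter exactly at the minimum.

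Of 18 introns in 5 of these genes that could be tested for coSE, 3 rose and 0 fell, all 3 in Txnip. Over all introns tested 0.363% rose and 1.25% fell. Txnip encodes a protein that binds and inhibits thioredoxin, and its read share was 0.640 of the uninduced one (151 and 64 reads). Its intron 3 (chromosome 3, 96559218 to 96559332) rose from 0.699 (93 reads) to 0.937 (63 reads, adjusted p 0.0209 by Fisher's exact test). Intron 5 (96559846 to 96559937) rose from 0.479 on 119 reads to 0.821 on 56 (adjusted p 0.00314), and intron 6 (96560095 to 96560207) from 0.373 on 126 to 0.725 on 51 (adjusted p 0.00374). The other 4 introns of Txnip were also higher in the induced pool and did not pass. Of 9 introns of the list tested for NIC, 0 passed and none had an unadjusted p under 0.05.

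RefSeq promoter sequences (GRCm38.p6, 250 bases before to 50 after the start) were at hand for 9 of the 10 genes, as 13 promoters. They were searched on both strands for AGATAA, a form of the GATA site, for CCACACCC, a form of the site of KLF1, and for TGACNNNGC, the core of the antioxidant response element. The first was found in none of the 13 and in 11.2% of 32851 promoters, and the second in none and in 3.56%. The third was found in 2 of the 13, those of Prdx1 and Sod1, and in 12.4% of all. These matches are printed with 8 bases on each side because they are the only ones. The letters shown are those of the plus strand. The stretch in capitals is the reverse complement of TGACNNNGC, which itself reads on the other strand.
Prdx1 (chr4:116685458-116685482, 124 bases before the start): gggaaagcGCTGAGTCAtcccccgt
Sod1 (chr16:90220698-90220722, 47 bases before the start): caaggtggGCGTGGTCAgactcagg
A match is a description of letters, and no match says only that these letters are not in the window.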

How the data were processed

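Long reads of chromatin RNA from MEL cells were available as 2 deposited tables. Per the file headers, the first holds whole-number counts of spliced and unspliced reads per intron and pool, and the second counts of spliced reads and intermediates, the deposited fraction NIC, a deposited percent GC and a deposited score per splice site. The submitters' processing notes name cutadapt, minimap2, SAMtools, bedtools and Bowtie with the builds mm10 and dm3, with no version or role, and the counting rule is not given in the sources used here. The tables' condition lines were taken to be the long-read groups with no integrated gene. Which samples were pooled is not stated, and the other 12 samples of the series were not analysed on their own.

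Positions (2 added to the start, 1 taken from the end) were joined to GENCODE mouse release 21 on GRCm38, where 99.96% were introns of the tabulated transcript. coSE and read shares were computed and tested with scipy 1.17.1 in Python 3.11.15. Introns with at least 10 reads in both pools entered Fisher's exact test on the counts, with Benjamini-Hochberg adjustment over all. Single shares have Wilson 95% intervals, differences Newcombe intervals and folds exact Clopper-Pearson ones, and a gene with no read in a pool was set to 3 counts. PCR copies are not independent molecules, so intervals and floors cover counting error only. The per-intron tests were also run on simulated counts drawn independently for each intron. These had no replicate spread, PCR copies or reads shared between introns, so they cover counting error only. All introns of the 10 genes with at least 10 reads were described, and from the wider list those past a threshold and up to 3 genes in each direction of read share. The members and lists were chosen with earlier results of these data known. The sequence of 1 splice site is not reported here.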

Additional observations from a re-analysis of the deposited data

How the results depend on the processing

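No paired analysis was possible because the samples of a condition are summed in both tables, with no replicate numbers. For the same reason no replicate could be left out. The number of introns past the coSE threshold was 71 and became 36 with no minimum and 31 among introns in every spanning transcript. Prdx2 introns 2, 3 and 4 passed under all 6 alternatives, with adjusted p of at most 0.0298, 0.00647 and 0.00540 (Fisher's exact or chi-square test). Gpx1 did not pass in 2 of the 5 it could enter. The mean coSE of the enzyme introns was 0.867, 0.910 and 0.805 in the uninduced pool at a minimum of 5 reads, of 20 reads and over genes. In the induced pool it was 0.562 weighted by reads, 0.753 at 5 reads, 0.556 at 20 reads and 0.688 over genes. For NIC, 1 intron passed by the chi-square test and 0 against all other reads of the intron. At 20 reads, 459 of 997 genes were past 2-fold, 165 higher and 294 lower, against 1051 of 2409, 414 and 637, so the counts are smaller because fewer genes entered. Of genes past 2-fold, 39.4% were higher, and 50.5% with the median ratio as scale, where 5 enzyme genes instead of 6 were past 2-fold. With spliced reads only, an alternative chosen after seeing the data, the folds of Prdx2 and Gpx1 were 3.32 and 4.94, and all 7 enzyme genes deep enough were past 2-fold, 5 of them lower, with Cat at 0.441, against 939 of 2021 among all genes, 533 of them lower. By the mean over introns 6 were past 2-fold, Sod1 (0.329) in place of Gpx4 (0.525), against 1098 of 2409 among all genes.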
